A study of Mus musculus with 4 samples.

Results

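The purine receptors and ectonucleotidases followed here are 10 genes: the ATP-gated channels P2rx4 and P2rx7, the nucleotide receptors P2ry1, P2ry6 and P2ry14, the ectonucleotidases Entpd1 and Nt5e, and the adenosine receptors Adora1, Adora2a and Adora3. They were taken by symbol from the 40091 genes listed over 4 single-nucleus RNA sequencing (snRNA-seq) libraries of mouse thalamus, and all 10 were found. The NS group consisted of wild-type C57BL6 mice, 7 to 8 weeks old, that received 10 nl saline in the right ventral posterior thalamus, and the COL group consisted of mice of the same strain that received 0.01 U Coll IV in 10 nl at the same site. Coll IV is a collagenase that breaks down vessel walls, so COL tissue models thalamic haemorrhage. Tissue was taken 7 days after the injection, and each of the 2 libraries per group pooled 3 mice, so replicates are pools (n = 2 per group) and the p-values measure the spread between pools. In the text, values of the 4 libraries are given in a fixed order, NS replicate 1, NS replicate 2, COL replicate 1 and COL replicate 2, unless stated otherwise.

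Damaged and active cells release ATP and other nucleotides, which open P2X channels and activate G protein-coupled P2Y receptors. The ectonucleotidase CD39, encoded by Entpd1, degrades extracellular ATP and ADP to AMP, and CD73, encoded by Nt5e, converts AMP to adenosine, which acts on the adenosine receptors. Brain microglia use this system to sense injury, and adenosine acting on A1 receptors dampens neuronal activity.

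Counts were of unique molecular identifiers (UMIs), each marking 1 captured RNA molecule, in 9673, 10422, 5931 and 6265 nuclei of the libraries. The median UMIs per nucleus were 6489, 4649, 8664 and 8691. Nuclei were clustered without the purinergic genes, and clusters were named from marker genes, so "microglia" and the other names below mean nuclei like that type. The comparisons used 15017 nuclei of neurons, 6522 of oligodendrocytes, 2722 of astrocytes, 1578 of microglia and 1324 of oligodendrocyte precursors (OPC). The macrophages, 799 nuclei in all, came with 3 and 5 nuclei from the NS libraries against 319 and 472 from the COL libraries, and the T and NK cells with 8 and 4 against 53 and 78, so neither type could be compared between groups. Many clusters belonged mostly to a single group. The microglia of the NS libraries lay in a cluster of their own, and those of the COL libraries lay in another and in a smaller cluster led by the cell-division genes Top2a and Mki67. In microglia, oligodendrocytes and astrocytes, where few nuclei of one group lay in clusters of the other, group and cluster cannot be told apart. OPC lay in 2 clusters. One was filled from every library, with 83, 103, 206 and 296 nuclei, and the other held 307, 318, 2 and 9 nuclei, so most NS nuclei of OPC lay in a cluster with few COL nuclei, and group and cluster cannot be fully told apart in the OPC sums either. Neurons had 4 clusters with at least 50 nuclei in every library. These held 699, 978, 2500 and 2353 of the 5027, 4372, 2928 and 2690 neurons. Most NS neurons thus lay outside them, and group and cluster cannot be fully told apart in the neuron sums either. Between 8 and 31 barcodes were shared by a pair of libraries.

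The level of a gene below is its number of UMIs per 1000000 UMIs (CPM), summed over all nuclei of a type in a library. In a sum over nuclei, fewer cells of a subtype and less RNA per cell cannot be told apart. Cell types were compared by level as a description without a test.

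**Figure D1:**
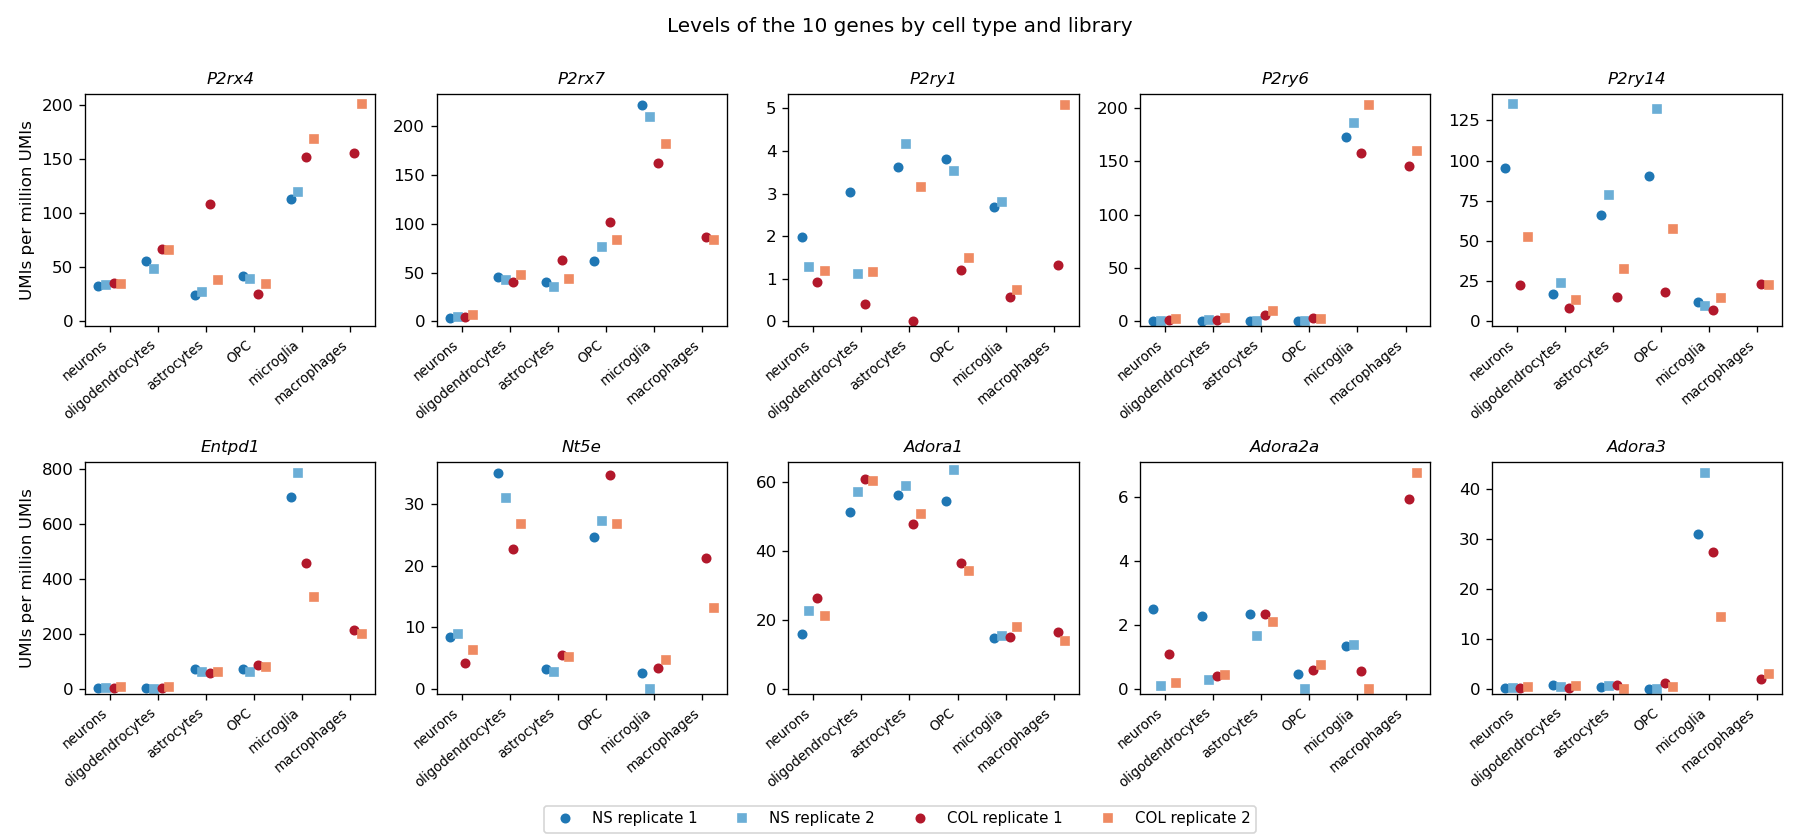
Levels of the 10 genes (y axes, CPM, each panel with its own scale) by cell type (x axes), 1 point per library. Blue points are NS libraries and red points are COL libraries, and macrophages are shown for the COL libraries alone. P2rx7, P2ry6, Entpd1 and Adora3 stand highest in microglia in every library, and P2ry14 is lower in the COL libraries in neurons, astrocytes, OPC and oligodendrocytes.

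Among the 5 compared types, 5 of the 10 genes had their highest mean level in microglia: P2rx4, P2rx7, P2ry6, Entpd1 and Adora3. Each of these was higher in microglia than in the next of the 5 compared types in all 4 libraries, and for each the lowest microglial library lay above every library of the next type. Promoter windows were at hand for 4 of the 5, as 6 windows of 250 bases before to 50 bases after an annotated start (RefSeq, GRCm38.p6). They were searched on both strands for GGAAGT, a core read by ETS family factors, which include the microglial and macrophage factor PU.1. The motif was chosen with the microglial levels known. One window of each of the 4 genes is shown because these genes share the microglial pattern, with matches to the motif in capitals (ACTTCC on the reverse strand). The P2rx4 window is chr5:122707294-122707593, the P2rx7 window chr5:122650133-122650432, the Entpd1 window chr19:40612116-40612415 and the Adora3 window chr3:105904171-105904470, all on the plus strand.
P2rx4: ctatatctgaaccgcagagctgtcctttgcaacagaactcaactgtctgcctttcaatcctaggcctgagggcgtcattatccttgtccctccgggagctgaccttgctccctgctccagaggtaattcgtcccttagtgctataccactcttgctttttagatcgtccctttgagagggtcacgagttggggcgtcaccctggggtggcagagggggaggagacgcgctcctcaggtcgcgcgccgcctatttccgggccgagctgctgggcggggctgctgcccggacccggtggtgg
P2rx7: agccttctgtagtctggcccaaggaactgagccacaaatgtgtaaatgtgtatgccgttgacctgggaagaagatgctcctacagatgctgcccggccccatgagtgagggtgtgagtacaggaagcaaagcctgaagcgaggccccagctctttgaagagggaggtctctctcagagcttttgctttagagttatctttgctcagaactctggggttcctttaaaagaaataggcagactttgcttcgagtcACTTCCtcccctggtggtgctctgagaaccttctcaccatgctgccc
Entpd1: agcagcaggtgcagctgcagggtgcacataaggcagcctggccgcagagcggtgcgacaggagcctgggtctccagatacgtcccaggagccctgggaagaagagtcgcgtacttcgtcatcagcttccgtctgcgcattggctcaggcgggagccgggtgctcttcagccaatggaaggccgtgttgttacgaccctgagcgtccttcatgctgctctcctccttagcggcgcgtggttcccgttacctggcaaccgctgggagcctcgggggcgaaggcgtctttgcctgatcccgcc
Adora3: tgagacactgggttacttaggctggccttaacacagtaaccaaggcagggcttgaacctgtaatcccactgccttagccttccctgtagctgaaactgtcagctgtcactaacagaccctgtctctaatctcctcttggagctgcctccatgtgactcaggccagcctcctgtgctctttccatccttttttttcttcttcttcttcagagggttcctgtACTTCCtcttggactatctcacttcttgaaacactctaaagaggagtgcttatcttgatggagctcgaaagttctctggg

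The motif stood in 3 of these 6 windows, namely both windows of P2rx7 and that of Adora3, and in 5 of the 14 windows of the 8 genes with one. Among the genes not highest in microglia, a window of P2ry14 and a window of Adora1 held the motif too. Among all 32851 windows of the table, 7809 (23.8%) held it. The longer run GAGGAAGT, which contains the first motif, stood in the second P2rx7 window and the Adora3 window and in 3.2% of all windows. No match in a window says only that these letters are absent there.

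P2rx4 and P2rx7 lie next to each other on chromosome 5 (GRCm38, 122707544-122729738 and 122643911-122691432, both plus strand). P2rx4, an ATP-gated cation channel of microglia, had levels of 113 and 120 CPM in NS microglia and 152 and 169 CPM in COL microglia. The groups did not overlap. In edgeR the rise was 0.52 on the log2 scale (SE 0.17, adjusted p = 0.0423). The call was lost without NS replicate 1 (0.46, adjusted p = 0.261), NS replicate 2 (0.61, adjusted p = 0.125) or COL replicate 2 (0.46, adjusted p = 0.109). It was also lost when nuclei with a UMI of a macrophage marker were left out (0.35, edgeR adjusted p = 0.182), which reduced the nuclei from 321, 343, 371 and 543 to 314, 329, 256 and 266. The same held with DESeq2 (0.57, adjusted p = 0.154) and with nuclei thinned to 2000 UMIs (0.50, edgeR adjusted p = 0.0692). COL macrophages had 156 and 202 CPM of P2rx4. The summed macrophage markers in the same microglia went from 9.43 and 82.5 CPM in NS to 199 and 303 CPM in COL. Beyond leaving out the nuclei with such a marker, their part in the rise was not tested. P2rx7, the low-affinity ATP channel tied to inflammasome activation, had 222 and 210 CPM in NS and 162 and 181 CPM in COL microglia. Its fitted change of -0.27 (SE 0.16) was not called (edgeR, adjusted p = 0.235).

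Outside microglia the 2 channels differed in their spread over types. P2rx7 was low in neurons, at 3.46, 4.85, 4.86 and 6.23 CPM, and stood at 61.7, 76, 102 and 83.5 CPM in OPC. P2rx4 in neurons lay in a narrow range, from 33.1 to 36 CPM over the 4 libraries. Neurons contributed 66.7%, 58.5%, 55.3% and 42.2% of all P2rx4 UMIs over the 4 libraries, where they made up 52%, 42%, 49.4% and 42.9% of the nuclei. Such shares also follow the UMIs per nucleus. By mean level, neurons stood last of the 5 compared types for P2rx4, at 34.5 CPM, next to OPC at 35.3 CPM. In astrocytes P2rx4 had 24.5 and 26.9 CPM in the NS libraries, 108 CPM in COL replicate 1 and 38.3 CPM in COL replicate 2. The fitted rise was 1.48 (SE 0.38, edgeR adjusted p = 0.0282). It rested on COL replicate 1, without which it was 0.60 (adjusted p = 0.177), and it was also lost at the finer clustering (0.68, adjusted p = 0.0611) and when each nucleus was typed by its own marker score (0.44, adjusted p = 0.204).

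P2ry1, the ADP receptor that drives calcium signals in astrocytes, was sparse, with 447 UMIs in all kept nuclei. Among the 5 compared types its highest mean level, 2.73 ± 1.87 CPM (SD, n = 4 libraries), was in astrocytes, and COL replicate 1 had none there. It passed the filter on low counts in neurons alone, with a fitted change of -0.48 (SE 0.35, edgeR adjusted p = 0.391).

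P2ry6, the UDP receptor through which microglia start phagocytosis, was low outside microglia and macrophages. In microglia it had 172 and 186 CPM in the NS libraries and 158 and 203 CPM in the COL libraries, against a highest value of 9.44 CPM in any library of the other 4 types. The groups overlapped in microglia, and the fitted change was 0.07 (SE 0.18, edgeR adjusted p = 0.802). In COL macrophages it had 146 and 160 CPM. Over the whole libraries P2ry6 went from 2.45 and 2.95 CPM in NS to 8.95 and 17.3 CPM in COL. Macrophages held 35.4% and 31.3% of its UMIs in the COL libraries, and microglia held 43.6% and 45.6%.

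Small amounts of P2ry6 also appeared in astrocytes, neurons and oligodendrocytes. In astrocytes there were 1 and 2 UMIs in the NS sums and 8 and 18 UMIs in the COL sums, or 0.214, 0.555, 6.28 and 9.44 CPM. The fitted rise was 4.33 (SE 0.69, edgeR adjusted p = 0.00402). The gene could pass the filter on low counts only through the COL group, where it was higher, and it did not pass, and so was not tested, by marker score, with thinning or without COL replicate 2. The 7 macrophage markers moved with it. Their summed level in astrocytes was 8.74 and 14.4 CPM in the NS libraries, with 5 of 7 found, and 40.8 and 93.9 CPM in the COL libraries, with 7 of 7 found. The summed microglial markers were 93.4 and 108 CPM against 97.3 and 152 CPM. In neurons P2ry6 had 0.408, 0.479, 1.02 and 2.55 CPM, from 23, 22, 52 and 113 UMIs, with a fitted change of 2.13 (SE 0.49, edgeR adjusted p = 0.110) that DESeq2 called (adjusted p = 0.00599), as did edgeR without COL replicate 1 (adjusted p = 0.0384). In oligodendrocytes it had 0.569, 1.25, 1.67 and 3.49 CPM, from 3, 9, 12 and 24 UMIs, with a fitted change of 1.44 (SE 0.59) that edgeR did not call (adjusted p = 0.114). Here too it passed the filter only through the COL libraries, so the calls it gained by marker score and with the Enpp6-led oligodendrocyte clusters added are not support for a rise. In both types the lower COL value stood above the higher NS value. The summed macrophage markers in neurons were 7.04, 8.1, 19.1 and 53.1 CPM, and in oligodendrocytes 2.84, 4.3, 36.4 and 95.9 CPM. The part of these transcripts in the levels of P2ry6 was not tested in any of the 3 types.

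P2ry14, the receptor for UDP-glucose, was the member with the most UMIs, 18503, and neurons held between 78.1% and 82.3% of them in each library. By mean level, neurons and OPC were alike, at 76.5 ± 49.1 and 74.5 ± 48.2 CPM (SD, n = 4 libraries). With thinning to 2000 UMIs per nucleus, OPC stood highest for P2ry14. Its level in neurons was 95.4 and 135 CPM in NS and 22.8 and 52.7 CPM in COL. The groups did not overlap, and within each group replicate 2 lay above replicate 1. The fitted change in neurons was -1.5 (SE 0.37), which was not called by edgeR (adjusted p = 0.110) and was called by DESeq2 (adjusted p = 0.00171). In edgeR it was called with no filter on low counts and with the replicate number as a block. Without COL replicate 2 edgeR also called it (-2.14, adjusted p = 0.00259).

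The same pattern of levels stood in 3 glial types. In astrocytes P2ry14 had 65.9 and 78.5 CPM in NS and 14.9 and 32.5 CPM in COL, a fall of 1.53 on the log2 scale (SE 0.29, edgeR adjusted p = 0.00889) that was called in all 12 alternatives. Its size varied from -1.13 without COL replicate 1 to -2.26 without COL replicate 2. In OPC it had 90.2 and 132 CPM in NS and 18.5 and 57.2 CPM in COL and fell by 1.46 (SE 0.33, edgeR adjusted p = 0.0091). That call was lost with DESeq2 alone (-1.52, adjusted p = 0.261), and the fitted change was -0.95 without COL replicate 1 and -2.51 without COL replicate 2. In oligodendrocytes the levels were 17.1 and 23.9 CPM against 8.09 and 13.5 CPM, with a fitted change of -0.91 that was not called (SE 0.31, edgeR adjusted p = 0.0672), though 6 of 13 alternatives called it. Neuron markers were found in these glial types too. Their summed level was 5348, 5245, 6225 and 5249 CPM in neurons. It was 931.5, 885, 1333 and 1092 CPM in astrocytes and 826, 785, 1096 and 953 CPM in OPC. Oligodendrocytes had 874, 754, 1328 and 1046 CPM of these markers. The part of neuronal transcripts in the glial levels of P2ry14 was not tested. In microglia P2ry14 was low, between 6.99 and 14.4 CPM, and the groups overlapped. The fitted change there was 0.075 (edgeR adjusted p = 0.927), and it turned to -1.51 and was called when each nucleus was typed by its own marker score (adjusted p = 0.013), so its direction in microglia depends on the typing.

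Most NS neurons lay outside the 4 neuron clusters with at least 50 nuclei in every library, so P2ry14 was also read in these clusters. Their pooled levels were 44.8 and 98.3 CPM in NS against 22.8 and 51.8 CPM in COL, so NS replicate 1 lay below COL replicate 2 and the groups overlapped. The fitted change was -1.02 (edgeR adjusted p = 0.314). In each of the 4 such clusters taken alone, every NS library lay above every COL library. In 1 of them, for instance, P2ry14 had 38 and 93.3 CPM in NS and 15.7 and 25.2 CPM in COL.

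P2ry14 (chromosome 3, 59113855-59153618, minus strand) lies inside Med12l (59005825-59318682, plus strand), a Mediator subunit gene, as do the ADP receptor genes P2ry12 and P2ry13. Whether strand was used in counting is not given in the sources used here, and without strand, reads of the genes on the 2 strands cannot be told apart. In neurons Med12l had 230 and 237 CPM in NS and 304 and 287 CPM in COL, so it stood higher in the COL libraries where P2ry14 stood lower (log2 fold change 0.51, edgeR adjusted p = 0.135). P2ry12, on the strand of P2ry14, had 30.7 and 40.9 CPM in NS neurons and 8.09 and 18.9 CPM in COL neurons. In OPC P2ry12 fell by 1.22 (edgeR adjusted p = 0.0107) and Med12l rose by 0.49 (adjusted p = 0.0453). In oligodendrocytes Med12l rose by 1.31 (adjusted p = 0.0063), from 41 and 43.9 CPM to 114 and 91.7 CPM.

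**Figure D2:**
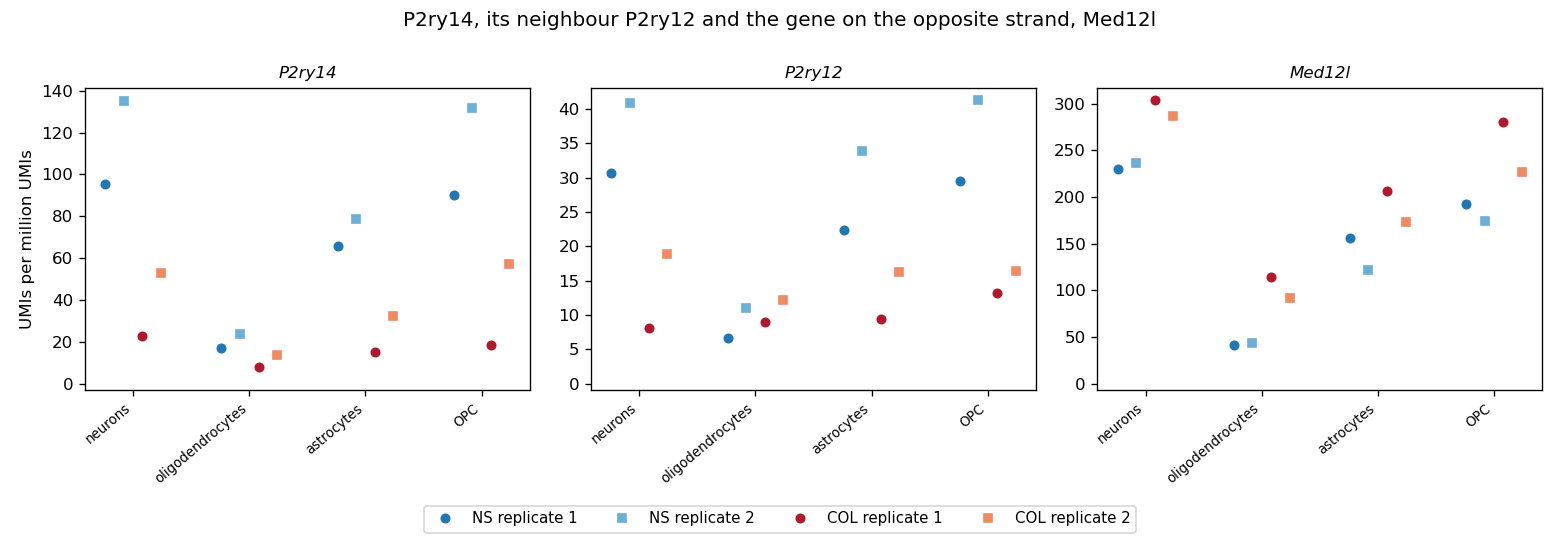
Levels (y axes, CPM) of P2ry14, P2ry12 and Med12l by cell type (x axes), 1 point per library, with NS in blue and COL in red. P2ry14 is lower in both COL libraries than in both NS libraries in all 4 types shown, P2ry12 in neurons, astrocytes and OPC, and Med12l is higher in COL in all 4.

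Entpd1 (chromosome 19, 40612366-40741602, plus strand) had its highest level in microglia. They had 698 and 786 CPM in the NS libraries and 458 and 334 CPM in the COL libraries, a mean of 742 ± 62.3 against 396 ± 87.3 CPM (SD, n = 2). The groups did not overlap. Entpd1 fell by 0.85 on the log2 scale (SE 0.18, edgeR adjusted p = 0.00508). The call was lost without NS replicate 2 (-0.71, adjusted p = 0.0609) and when each nucleus was typed by its own marker score (-0.48, adjusted p = 0.0742). It held when nuclei with a UMI of a macrophage marker were left out, and when the microglial cluster led by Top2a was left out. With microglial nuclei of at least 1000 UMIs thinned to 1000 UMIs, an Entpd1 UMI was found in 44.8% and 51.3% of NS nuclei and in 36.3% and 28.7% of COL nuclei. Nuclei with fewer UMIs enter only the shares at full depth. At full depth the shares were 68.2% and 74.6% against 66.3% and 61.5%, with 4.3% of neurons of NS replicate 1 at a median of 9718 UMIs, against 2230 UMIs in its microglia.

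Within COL microglia, the larger cluster had 549 and 411 CPM of Entpd1 and the cluster led by Top2a had 234 and 162 CPM. COL macrophages had 215 and 201 CPM. The microglial markers moved with Entpd1: their summed level was 4601 and 4409 CPM in NS microglia and 2813 and 2792 CPM in COL microglia, with all 6 found in each library. The summed macrophage markers in microglia were 9.43 and 82.5 CPM in NS and 199 and 303 CPM in COL. Their part in the fall of Entpd1 was not tested, apart from the alternative without nuclei that carry a macrophage marker.

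Elsewhere Entpd1 was at a lower level and was not called lower in COL. OPC had between 60.9 and 86.7 CPM and astrocytes between 58.1 and 74.6 CPM. The fitted change in OPC was 0.33 (SE 0.17, edgeR adjusted p = 0.193) and was called when each nucleus was typed by its own marker score (0.62, adjusted p = 0.0477). Astrocytes gave no call. Neurons had between 4.27 and 6.81 CPM. In oligodendrocytes Entpd1 had 3.22 and 2.08 CPM in NS, from 17 and 15 UMIs, and 5.72 and 7.13 CPM in COL, from 41 and 49 UMIs. The rise of 1.33 (SE 0.37, edgeR adjusted p = 0.0375) was lost when any single library was left out (1.1 to 1.61, adjusted p from 0.0511 to 0.212) and with DESeq2 (1.36, adjusted p = 0.114). Summed macrophage markers in oligodendrocytes stood at 2.84 and 4.3 CPM in NS and at 36.4 and 95.9 CPM in COL, and their part was not tested. The change of Entpd1 in microglia differed from that in oligodendrocytes by -2.15 on the log2 scale (SE 0.31, edgeR interaction test with the library as a block, adjusted p = 1.46e-06). This difference was also called with RLE factors (edgeR adjusted p = 7.76e-08) and DESeq2 (adjusted p = 7.47e-05). With any single library left out it lay between -2.52 and -1.76. Marker score typing, thinning and leaving out macrophage marker UMIs were not run for it. Every member but Adora2a was tested in this edgeR interaction. Entpd1 alone was called, beside 8.57% of all genes.

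**Figure D3:**
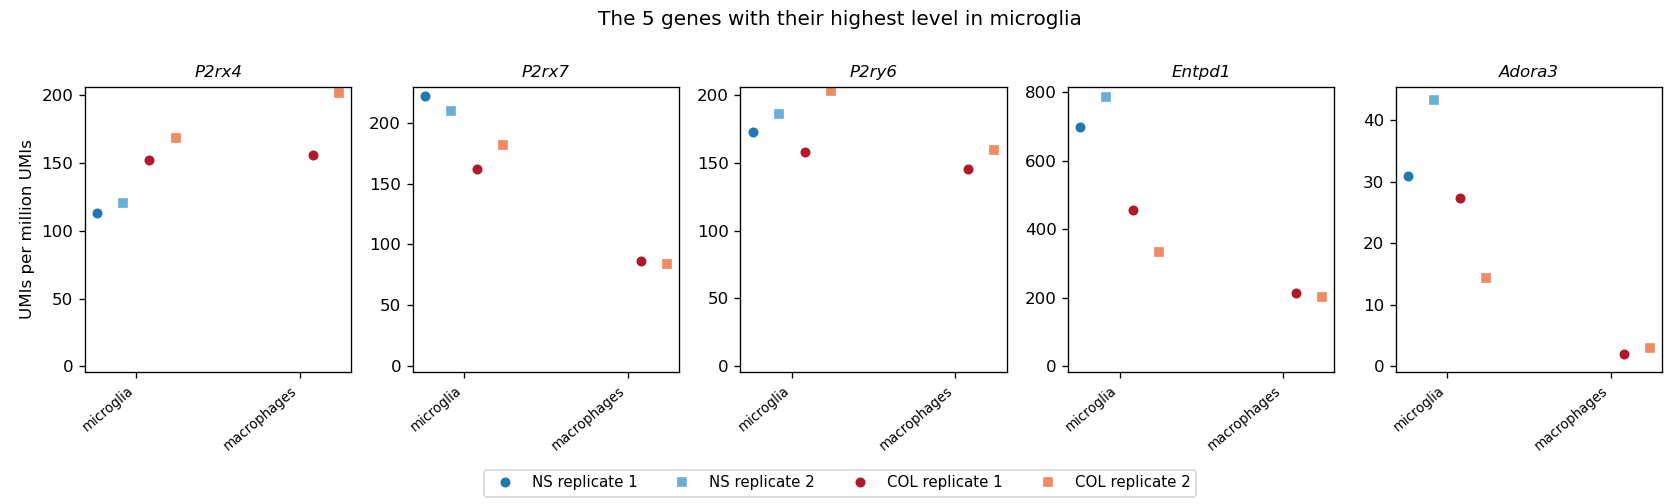
Levels (y axes, CPM) of the 5 genes whose highest mean level among the 5 compared types was in microglia. They are shown in microglia of all 4 libraries and in macrophages of the COL libraries, 1 point per library. In microglia Entpd1 is lower and P2rx4 higher in both COL libraries, and Adora3 is near 0 in macrophages.

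Nt5e (chromosome 9, 88327197-88372092, plus strand), which makes adenosine from AMP, was placed in other types than Entpd1. Oligodendrocytes had 35.1 and 31 CPM in NS and 22.7 and 26.8 CPM in COL, and OPC had 24.7, 27.2, 34.7 and 26.7 CPM. The 2 types were not apart beyond their spread over libraries. Microglia had 2, 0, 6 and 13 Nt5e UMIs, the lowest mean of the 5 types at 2.75 CPM. No comparison called Nt5e. T and NK cells of the COL libraries had 99.9 and 72.4 CPM from 18 and 17 UMIs, and COL macrophages had 21.2 and 13.1 CPM.

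Adora1 encodes the A1 receptor, which inhibits transmitter release. Its mean levels were 57.4 ± 4.39 CPM in oligodendrocytes, 53.5 ± 5.08 CPM in astrocytes, 47.2 ± 14.2 CPM in OPC, 21.6 ± 4.37 CPM in neurons and 15.9 ± 1.51 CPM in microglia (SD, n = 4 libraries). The first 3 types overlapped, and each library of OPC lay above every library of neurons. In OPC Adora1 had 54.6 and 63.5 CPM in NS and 36.5 and 34.2 CPM in COL and fell by 0.72 (SE 0.20, edgeR adjusted p = 0.0235). The call was lost without NS replicate 2 (adjusted p = 0.271) and without COL replicate 2 (adjusted p = 0.0582), and thinning to 2000 UMIs per nucleus brought the change to -0.32 (adjusted p = 0.548). It was also lost by marker score (-0.30, edgeR adjusted p = 0.365) and with DESeq2 (-0.69, adjusted p = 0.2605). Adora1 was not called in the other 4 types. It overlaps Mybph on the opposite strand.

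Adora2a, an adenosine receptor best known from striatal neurons, was rare, with 327 UMIs in all, of which 183 came from NS replicate 1. Of these, 95 lay in a neuron cluster with Rarb, Bcl11b and Rgs9, genes known from striatal neurons, among its 10 leading genes. In this cluster Adora2a had 38.8 CPM in NS replicate 1 (39 of 264 nuclei with a UMI) and 11.5 CPM in COL replicate 1 (20 of 233 nuclei). It was not found in NS replicate 2, where the 39 nuclei allow up to 8.86 CPM at 3 counts, or in COL replicate 2, where the 91 nuclei allow up to 1.76 CPM. The nuclei of the cluster also differed in Rarb, which had 1105, 97.5, 570 and 86.4 CPM over the 4 libraries. The GABA-synthesis gene Gad1 had 152, 26.6, 127 and 62.3 CPM there, and Gad2 had 307, 32.5, 249 and 111 CPM. All 3 were lower in both replicates numbered 2, where Adora2a was not found. Rgs9 was too, at 470, 35.4, 214 and 98.8 CPM. Bcl11b did not follow this order, at 290, 257, 244 and 67.6 CPM, with NS replicate 2 above COL replicate 1. Drd2, the dopamine receptor gene, was named after the values were seen. It had 82.2 CPM in NS replicate 1, 49 CPM in COL replicate 1, 2.94 CPM in COL replicate 2 and none in NS replicate 2, and 33 of the 39 nuclei with Adora2a in NS replicate 1 also had a Drd2 UMI. The cluster made up 5.25%, 0.892%, 7.96% and 3.38% of the neurons. Both replicates numbered 1, of either group, thus carried Adora2a in this cluster, and the groups overlapped. In astrocytes Adora2a lay between 1.66 and 2.35 CPM, and it had 5.96 and 6.78 CPM in COL macrophages. Vascular nuclei, which were not compared, held 2.73%, 11.8%, 6.10% and 6.67% of the Adora2a UMIs. They made up 0.352%, 0.614%, 0.455% and 0.750% of the nuclei. T and NK cells of the COL libraries held 1.22% and 17.8%, from 0.894% and 1.245% of the nuclei.

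Adora3, an A3 receptor gene (chr3:105870858-105908926, plus strand) that overlaps Tmigd3 on the same strand, had 264 UMIs in all. In microglia it had 31 and 43.3 CPM in NS and 27.4 and 14.4 CPM in COL, with exact Poisson 95% intervals of 19.6 to 46.5, 29.4 to 61.5, 20.1 to 36.4 and 10.2 to 19.7 CPM, which cover counting error only. The interval of COL replicate 1 overlapped those of both NS libraries, and that of COL replicate 2 met that of NS replicate 1 at its edge. The fitted change of -0.81 (SE 0.38) was not called (edgeR adjusted p = 0.127), except without COL replicate 1 (-1.32, adjusted p = 0.00752). No library of neurons, oligodendrocytes, astrocytes or OPC passed 1.2 CPM, and COL macrophages had 1.99 and 2.96 CPM. Tmigd3 fell by 2.34 in microglia (SE 0.36, edgeR adjusted p = 0.000711), from 51.2 and 60.1 CPM to 5.82 and 14 CPM. Reads in the bases both genes share do not tell the genes apart, and how such reads were counted is not given in the sources used here.

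Over the 10 genes, the comparison of COL with NS called none in neurons, where edgeR called 0.00841% of 23780 genes (2 genes, with 6678 at an unadjusted p under 0.05) and DESeq2 called 2 of the 10, P2ry14 and P2ry6, beside 11.9% of the 21423 genes it gave an adjusted p. In oligodendrocytes 1 of the 7 tested was called, Entpd1, beside 22.8% of all genes tested. In astrocytes 3 of 7 were called, with P2rx4 and P2ry6 higher and P2ry14 lower, beside 16.1% of all genes. P2ry6 passed the filter there only through the COL libraries, so its call adds nothing to this count. In microglia 2 of 7 were called, P2rx4 higher and Entpd1 lower, beside 28.2%, and in OPC 2 of 6, P2ry14 and Adora1, both lower, beside 18.6%. With 6 to 10 members tested per type, these counts are a description of single genes and not a result about the set. Nt5e in astrocytes and P2ry6 in oligodendrocytes also passed the filter only through the COL libraries, and both enter the medians that follow. The median log2 fold change of the members tested was 0.26 in neurons, 0.19 in oligodendrocytes, 0.48 in astrocytes, 0.07 in microglia and -0.07 in OPC, where that of all genes tested was 0.02, -0.02, -0.03, 0.01 and -0.01. Without P2ry6 (4.33) and Nt5e (0.85), the middle value in astrocytes was -0.17, that of Entpd1. The sign of the astrocyte median thus rested on genes that passed the filter only through COL. Without P2ry6, the middle values in oligodendrocytes were 0.03 (P2rx7) and 0.19 (Adora1).

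**Figure D4:**
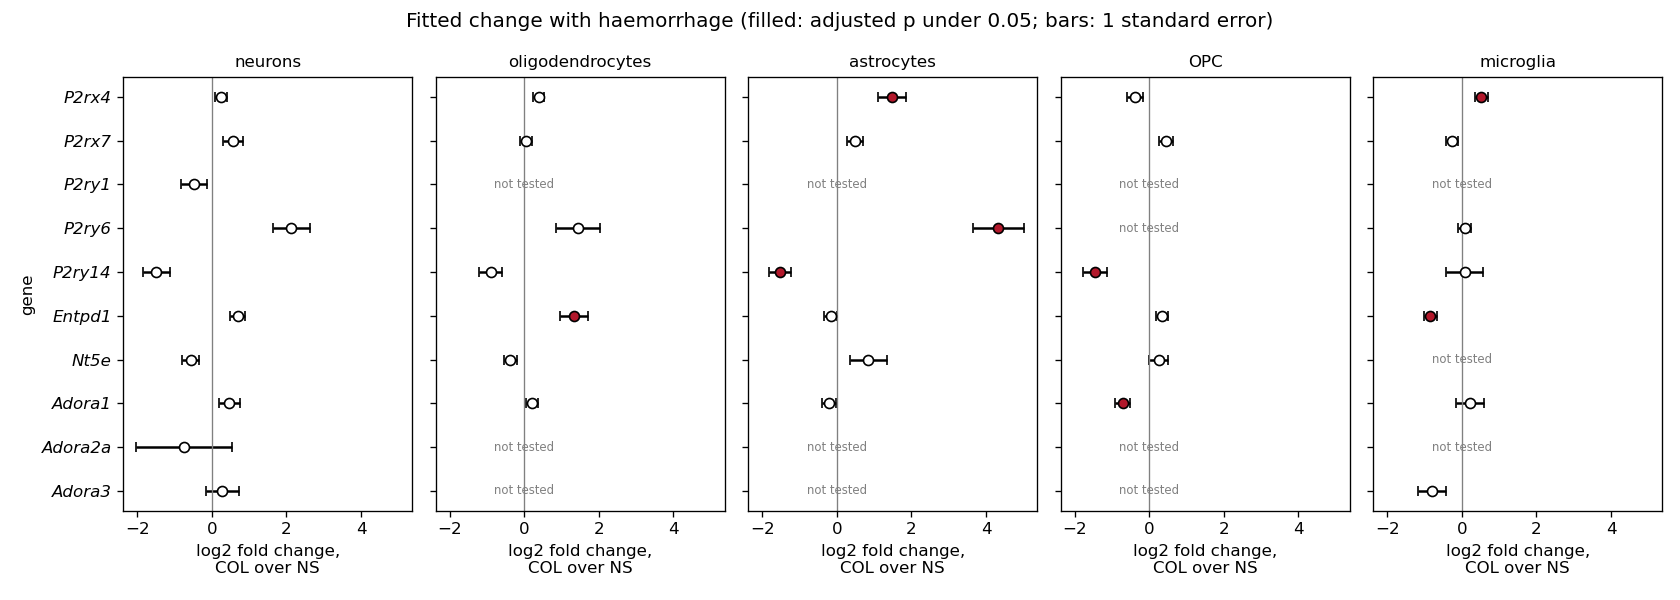
Fitted log2 fold changes, COL over NS (x axes), of the 10 genes (y axis) in 5 cell types, from sums over 2 libraries per group. Points are edgeR estimates, bars are 1 standard error, filled points have an adjusted p under 0.05, and genes that did not pass the filter on low counts are marked as not tested. P2ry14 lies left of 0 in neurons, oligodendrocytes, astrocytes and OPC, and Entpd1 lies left of 0 in microglia and right of 0 in oligodendrocytes.

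Among 23 other genes of purine signalling, 22 were in the files. Microglia had 9 of them tested, with 2 higher and 2 lower in COL, beside 28.2% of all genes called. Enpp1, an ectoenzyme that makes AMP from ATP, rose by 2.27 (SE 0.35, edgeR adjusted p = 0.000685), from 10.8 and 8.39 CPM to 47.2 and 42.9 CPM. Adk, the kinase that clears adenosine inside cells, rose by 1.26 (SE 0.23, edgeR adjusted p = 0.00182), from 48.5 and 75.5 CPM to 147 and 138 CPM. P2ry12, the ADP receptor that guides microglial processes, fell by 1.12 (SE 0.16, edgeR adjusted p = 0.000378), from 1128 and 895 CPM to 451 and 438 CPM. P2ry13, a further ADP receptor, fell by 1.39 (SE 0.35, edgeR adjusted p = 0.0114), from 48.5 and 29.4 CPM to 16.9 and 12.2 CPM. Both lie inside Med12l, which itself fell by 1.01 in microglia (adjusted p = 0.000685), so the reservation on strand holds for them too.

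In astrocytes 1 of 11 was called, beside 16.1% of all genes. It was Entpd2, an ectonucleotidase that turns ATP to ADP, which fell by 1.14 (SE 0.29, edgeR adjusted p = 0.0254), from 31.1 and 22.5 CPM to 12.6 and 11.5 CPM. In OPC 1 of 8 was called, P2ry12, beside 18.6%, and none of 14 in oligodendrocytes, beside 22.8%, or of 19 in neurons, beside 0.00841%.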

How the data were processed

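Per the labels and the paper's methods, the authors made 10x Genomics libraries of nuclei, sequenced them and counted UMIs with Cell Ranger 1.2.0 against mm10. The authors deposited unnormalized whole-number UMI counts for each gene in each barcode. The 4 files held 77557870, 68746459, 69513636 and 69511080 UMIs (NS 1, NS 2, COL 1, COL 2). Nuclei with more than 50 genes and under 5% mitochondrial UMIs were kept (32291) and clustered in Seurat 5.3.0 (5000 variable genes without the purinergic genes, 15 PCs, resolution 0.8, giving 32 clusters). Clusters were named from marker lists. Clusters that held many doublets or markers of several types were left out of the comparisons. So were 2 oligodendrocyte clusters with Enpp6 among their leading genes, called Enpp6-led here. Doublets were scored and were removed only in an alternative.

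Counts were summed per library and type and tested with edgeR 4.0.16 under R 4.3.3 (filterByExpr, TMM, the quasi-likelihood test, adjustment by Benjamini-Hochberg over all genes tested, threshold 0.05). Tests were checked on simulated counts. DESeq2 1.42.0 was one alternative. The others were RLE factors, a replicate block, no low-count filter, each library left out, doublets removed, resolution 1.2, typing each nucleus by marker score, thinning to 2000 UMIs per nucleus, and microglia without macrophage marker UMIs. Those on neuron clusters, Enpp6-led clusters and the Top2a-led cluster were chosen after seeing the data. Members, lists and tests were chosen with earlier results of these data known. The members are named everywhere, the other purinergic genes where they were called, and marker and overlapping genes where they bear on a member. Coordinates are from GENCODE M21 (GRCm38, 1-based), and levels were computed with pandas 2.3.3 (Python 3.11.15) and plotted with matplotlib 3.10.9.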

Additional observations from a re-analysis of the deposited data

Results flagged for a closer look

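The change of Entpd1 with haemorrhage differed between microglia and oligodendrocytes by a test of the difference itself, at -2.15 on the log2 scale (SE 0.31, edgeR interaction test, adjusted p = 1.46e-06). Entpd1 was lower in COL than in NS in both microglial sums and higher in both oligodendrocyte sums. The oligodendrocyte sums rested on 15 to 49 UMIs of the gene per library. Over the 6 alternatives run for it, which were DESeq2, RLE factors and each library left out, the difference lay between -2.52 and -1.76. Marker score typing, thinning and leaving out macrophage marker UMIs were not run for it.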

How the results depend on the processing

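Of 523 member changes recomputed under the alternatives, 461 kept their direction and their side of the threshold, 22 lost and 19 gained the call, and 21 changed sign. Most of these changes were not called in the main test, so for them keeping the side of the threshold means staying uncalled. All 22 losses fell on the fewer changes that the main test called.

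The number of members called in neurons, 0, was 2 with DESeq2 and 1 with no filter. In oligodendrocytes, 1, it was 0 with DESeq2, 2 with no filter, thinning or the Enpp6-led clusters, and 3 by marker score. The calls added with the Enpp6-led clusters and by marker score include P2ry6, which passed the filter only through COL and is no support. In astrocytes the number, 3, was 2 at resolution 1.2 or with thinning, and 1 by marker score. In microglia, 2, it was 1 with DESeq2, thinning or without macrophage marker UMIs. In OPC, 2, it was 0 with DESeq2 and 1 with thinning, by marker score Entpd1 was called and Adora1 was not (P2ry6 was also called, but could pass the filter only through COL, and is no support), and without COL replicate 2 P2rx7 took the place of Adora1. With 1 library left out the counts ran from 0 to 1 in neurons, 0 to 1 in oligodendrocytes, 2 to 3 in astrocytes, 0 to 3 in microglia, 1 to 2 in OPC and 1 to 2 in the interaction.

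Over all genes, edgeR called 2 in neurons against 729 with no filter, 1137 with the replicate block, 2559 with DESeq2, 362 without COL replicate 1, 5262 without COL replicate 2 and 0 or 1 under the rest. DESeq2 called 1154, 1658 and 937 in astrocytes, microglia and OPC (edgeR 2308, 3365 and 2446), and 2638 in oligodendrocytes. By marker score edgeR called 3674 of 16867 in oligodendrocytes, 1714 of 14492 in astrocytes, 2403 of 12989 in microglia and 2228 of 15295 in OPC. Thinning left 3269 of 13435, 1394 of 11822, 2468 of 9863 and 970 of 9065 in the same order. In oligodendrocytes no filter gave 5138 of 29823 and the Enpp6-led clusters 3859 of 17148. Resolution 1.2 gave 2529 of 13876 in astrocytes, and leaving out macrophage marker UMIs gave 2908 of 11018 in microglia. The block gave 3605 in astrocytes. Without 1 library the lowest and highest were 2177 and 5660 in oligodendrocytes (edgeR 3675), 1499 and 2791 in astrocytes, 2187 and 3713 in microglia and 1292 and 3440 in OPC.

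In neuron clusters shared by all libraries, the signs of P2ry1 (0.22), P2rx7 (-0.13), P2rx4 (-0.21) and Adora1 (-0.18) were reversed. Marker scores reversed P2ry14 (-1.51) and Adora1 (-0.061) in microglia and Entpd1 in astrocytes (0.19), and P2ry14 in microglia was then called (edgeR adjusted p = 0.013). Thinning reversed P2rx7 in oligodendrocytes (-0.13), Entpd1 in astrocytes (0.069) and Nt5e in OPC (-0.0076). Resolution 1.2 reversed P2rx7 in oligodendrocytes (-0.045), and leaving out macrophage marker UMIs reversed P2ry6 in microglia (-0.013). Leaving out 1 library turned the sign within these ranges: Adora3 from -0.12 to 0.54 and Adora2a from -2.63 to 2.74 in neurons, P2rx7 from -0.057 to 0.13 in oligodendrocytes, P2ry14 from -0.036 to 0.44 and P2ry6 from -0.11 to 0.22 in microglia, and in the interaction Adora3 from -1.62 to 0.52, P2ry1 from -1.53 to 0.066 and Adora1 from -0.13 to 0.22. The causes were not tested.

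Same-numbered libraries came from different mice, with correlations of their deviations from the group means of 0.05 to 0.17 over the 5 types and only 2 pairs, so the numbers were not taken as a pairing. With the replicate number as a block, 1 member was called in neurons (P2ry14) and 2 in oligodendrocytes (P2ry14, Entpd1), and no other call changed. With 2 libraries per group, low UMI counts limit P2ry1, Adora2a and Adora3 most.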
